A study of Mus musculus with 12 samples.

Results

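The genes described here are 10 members of the costimulatory and checkpoint system by which antigen-presenting cells and vessel walls speak to T cells. They were chosen by symbol from the 32285 genes listed in the feature tables: the 5 ligands Cd274, Pdcd1lg2, Cd80, Cd86 and Icosl, and the 5 receptors Pdcd1, Cd28, Ctla4, Icos and Tigit. All 10 were found, and their UMIs (molecular tags that each mark 1 captured transcript) were counted in 89054 cells of 12 single-cell libraries from mouse lymph nodes. The share of those cells with at least 1 UMI ran from 1.48% for Tigit, 1.80% for Pdcd1 and 2.66% for Cd80 to 22.6% for Cd274. In between were Icosl with 8.08%, Pdcd1lg2 with 9.0%, Ctla4 with 9.97%, Icos with 12.5%, Cd28 with 14.8% and Cd86 with 15.4%.

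A T cell that meets its antigen needs a further signal to respond fully. Cd80 and Cd86, held by dendritic cells and B cells, give that signal through Cd28, and the inhibitory receptor Ctla4 competes for the same ligands. Cd274 (the protein PD-L1) and Pdcd1lg2 (PD-L2) bind the inhibitory receptor Pdcd1 (PD-1). Icosl binds Icos, a receptor that supports follicular helper and regulatory T cells, and Tigit is an inhibitory receptor of T and NK cells whose ligands, of the nectin family, are not among the members. Lymph node endothelium, lymphatic endothelium above all, is known to carry Cd274.

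Nodes came from C57BL/6 mice that all carried loxP-flanked Atg12, a gene needed for the formation of autophagosomes, and all received tamoxifen. The mice labelled Cre-positive also carried Cdh5 CreER, a tamoxifen-inducible recombinase under an endothelial promoter, and those labelled Cre-negative did not. The abdomen was painted with 4% oxazolone, a contact sensitiser, and the nodes were collected 3 or 7 days later (day 3 and day 7 below). Vehicle mice were painted with the solvent alone. Beads against CD45 split each digest, and both parts were then flow sorted: the unbound part gave the CD31 libraries, rich in endothelium, and the bound part the CD45 libraries of immune cells. Each combination of treatment, label and fraction is 1 library, so no difference within a time point has a replicate.

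The 12 libraries held 36724887 to 76186801 UMIs, and 5698 to 10553 cells were kept in each, with a median of 3433 to 6194 UMIs per cell. At most 0.38% of the cell barcodes of the smaller library of a pair were shared with another. In the 6 CD45 libraries, 15.8% to 26.5% of cells were stromal-like rather than immune. Values by library are given below with the library labelled Cre-negative first in each pair. Atg12, the targeted gene, was counted as UMIs per 1000000 UMIs of the class (CPM), with 44.7 and 52.5 at vehicle, 43.7 and 49.9 at day 3 and 43.8 and 43.1 at day 7 in HEV-like cells. It had 53.9 and 79.1 CPM at vehicle, 47 and 63.5 at day 3 and 55.7 and 69.8 at day 7 in other blood endothelial-like cells. Lymphatic endothelial-like cells had 58.5 and 82.1 CPM at vehicle, 47.5 and 72.9 at day 3 and 51.9 and 59.3 at day 7. In these 9 pairs the value labelled Cre-positive was the lower in 1. A count taken at the 3-prime end need not lie in the deleted part of a gene, so this does not check the labels. A feature named mRFP, which the labels do not explain, is listed for 4 of the CD31 libraries. It had 364, 930 and 342 UMIs in those labelled Cre-positive, in the order vehicle, day 3 and day 7, and 0 in the day 7 library labelled Cre-negative. Some classes varied between libraries in a way that neither treatment nor label orders. Germinal centre B cell-like cells in the CD45 libraries numbered 213 and 19 at vehicle, 22 and 25 at day 3 and 8 and 255 at day 7. Plasma cell-like cells numbered 142 and 6 at vehicle, 31 and 9 at day 3 and 3 and 152 at day 7. A CD4 cluster with Tbc1d4 among its leading genes, not necessarily the first, is called led by Tbc1d4 here. It also scored on the CD8 marker list, so it was given no type name. Its cells numbered 376 and 93 at vehicle, 187 and 136 at day 3 and 114 and 399 at day 7. The vehicle library labelled Cre-negative and the day 7 library labelled Cre-positive were the highest in all 3. At vehicle the library labelled Cre-negative was thus far above its partner and at day 7 far below it, and whether any library carries the label of another could not be settled from the files. Every value below stands under the labels as given, and results for treatment are also given without the vehicle and day 7 libraries labelled Cre-negative where that changes a call. That fit has treatment alone as a term, since the label term would leave no residual degree of freedom. It sets 2 day 3 libraries against 1 vehicle library and 1 day 7 library against 1 vehicle library, with 1 residual degree of freedom, from the 2 day 3 libraries.

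Levels below are CPM, the UMIs of a gene relative to all UMIs of the cells of a class in a library. Classes were named from marker genes as "-like" types. Free RNA was read from barcodes with 10 to 100 UMIs, which hold no cell, and its CPM is given beside low levels. The free level is a comparison and not a floor: a value under it may still come from the cells. Treatments were compared by edgeR's quasi-likelihood test on UMI sums in a model with treatment and label, 2 libraries against 2, and labels 3 against 3. The p-values are adjusted by Benjamini-Hochberg over all genes tested in the class, and measure only the spread between these libraries. The test pools that spread over genes, so a p-value need not follow a gene's own spread alone. A gene that is not called may still have changed. Counts at an unadjusted p under 0.05 stand without the share of all genes at that p, so nothing is read from them. Passes gained only under an alternative setting likewise stand without the share of all genes called in that setting. They show how a test moved and are not read as results about the members. Day 3 and day 7 are both compared with the same vehicle libraries. The immune cells of the CD31 libraries are a second measurement on the same digests, not further mice, as far as the labels tell.

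The members lie at few loci in the mouse genome (build GRCm38, GENCODE vM21 gene bounds). Cd274 at chr19:29367455-29388095 and Pdcd1lg2 at chr19:29410919-29471161 are neighbours on the plus strand, 22823 bases apart. Cd28 at chr1:60716800-60773359, Ctla4 at chr1:60887000-60915832 and Icos at chr1:60977927-61000320 follow each other on the plus strand, with 113640 and 62094 bases between them. Chromosome 1 also holds Pdcd1, on the minus strand at chr1:94038305-94052553. Chromosome 16 holds Cd80 at chr16:38455561-38496335 on the plus strand, with Cd86 at chr16:36603869-36666081 and Tigit at chr16:43648867-43664146 on the minus strand. Icosl lies at chr10:78069302-78083913 on the plus strand.

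Promoters are shown for the 3 ligands whose day 3 libraries were the highest in migratory dendritic-like cells and that have an entry in the RefSeq promoter table (build GRCm38.p6), and for Icosl, where they were not. The RefSeq and GENCODE starts are the same for Pdcd1lg2 and differ for the other 3, most for Cd80. Each is read on the plus strand from 250 bases before to 50 after the annotated start, with the 50 transcribed bases in capitals: chr19:29367188-29367487 for Cd274, chr19:29410669-29410968 for Pdcd1lg2, chr16:38458683-38458982 for Cd80 and chr10:78069118-78069417 for Icosl.
Cd274: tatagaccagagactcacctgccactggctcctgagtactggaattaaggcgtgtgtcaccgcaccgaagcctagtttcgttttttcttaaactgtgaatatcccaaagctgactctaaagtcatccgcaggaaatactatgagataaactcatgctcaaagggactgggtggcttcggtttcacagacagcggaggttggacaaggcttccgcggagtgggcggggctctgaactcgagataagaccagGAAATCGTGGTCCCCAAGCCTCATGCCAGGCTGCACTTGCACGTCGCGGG
Pdcd1lg2: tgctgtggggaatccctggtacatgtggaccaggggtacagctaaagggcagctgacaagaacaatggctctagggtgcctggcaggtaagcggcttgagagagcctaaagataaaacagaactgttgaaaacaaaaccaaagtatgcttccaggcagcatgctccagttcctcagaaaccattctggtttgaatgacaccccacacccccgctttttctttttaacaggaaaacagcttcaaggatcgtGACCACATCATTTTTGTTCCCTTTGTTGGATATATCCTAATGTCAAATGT
Cd80: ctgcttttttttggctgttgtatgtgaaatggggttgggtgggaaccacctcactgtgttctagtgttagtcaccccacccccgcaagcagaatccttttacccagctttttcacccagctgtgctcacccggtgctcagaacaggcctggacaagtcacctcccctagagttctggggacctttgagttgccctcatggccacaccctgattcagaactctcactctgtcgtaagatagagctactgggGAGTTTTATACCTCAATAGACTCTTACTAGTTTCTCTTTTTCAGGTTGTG
Icosl: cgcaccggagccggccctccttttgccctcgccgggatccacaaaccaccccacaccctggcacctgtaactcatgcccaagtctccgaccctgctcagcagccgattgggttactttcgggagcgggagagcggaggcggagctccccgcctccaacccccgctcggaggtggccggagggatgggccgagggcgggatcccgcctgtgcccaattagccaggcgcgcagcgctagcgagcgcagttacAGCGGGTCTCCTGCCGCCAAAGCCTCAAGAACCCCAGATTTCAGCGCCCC
The table held promoters for 7 of the 10 members, and none for Cd86, Cd28 and Icos. Icosl had 68% G and C and 26 CpG pairs in its 300 bases, Cd274 had 52.7% and 15, Cd80 had 49.7% and 3, and Pdcd1lg2 had 46% and 3, against medians of 52.7% and 7 over 32851 promoters. On both strands the 7 windows were searched for the letters TTCNNNGAA, a STAT site motif found in 8.30% of all promoters, and none held it. Motifs with another spacing were not searched for, so STAT sites of other forms may be present.

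The ligands divided among the classes, as the map of levels by class shows. Migratory dendritic-like cells, dendritic cells that have come from tissue and are marked by Ccr7 and Fscn1, had the highest mean level of Cd274, Cd80 and Icosl among the fitted classes of the CD45 libraries. Over the 6 CD45 libraries, Cd274 averaged 296 ± 150.1 CPM in them (SD over the 6 libraries), followed by 140.5 ± 51.9 in B cell-like and 134 ± 34.2 in regulatory T cell-like cells, whose ranges overlapped. For Cd86 the order was 346 ± 50.1 in type 1 conventional dendritic-like, 317 ± 109 in B cell-like and 294 ± 216 in migratory dendritic-like cells, which do not differ beyond their spread. Pdcd1lg2 was spread more widely. Its means were 80.2 ± 16.2 in regulatory T cell-like, 77.3 ± 20.9 in B cell-like and 71.8 ± 15.2 in NK cell-like cells, all within 1 SD of each other. Cd80 had 94.2 ± 87.1 in migratory dendritic-like and 60.9 ± 23.9 in type 1 conventional dendritic-like cells, with overlapping ranges, and 21.7 ± 7.13 in regulatory T cell-like cells. The first of these means is set by day 3: in 4 of the 6 libraries, those of vehicle and day 7, type 1 conventional dendritic-like cells had the higher Cd80. Icosl had 147 ± 34.1 in migratory dendritic-like cells, 63.3 ± 9.18 in B cell-like cells and 21.5 ± 10.9 in stromal-like cells, with no overlap between these 3 ranges.

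**Figure D1:**
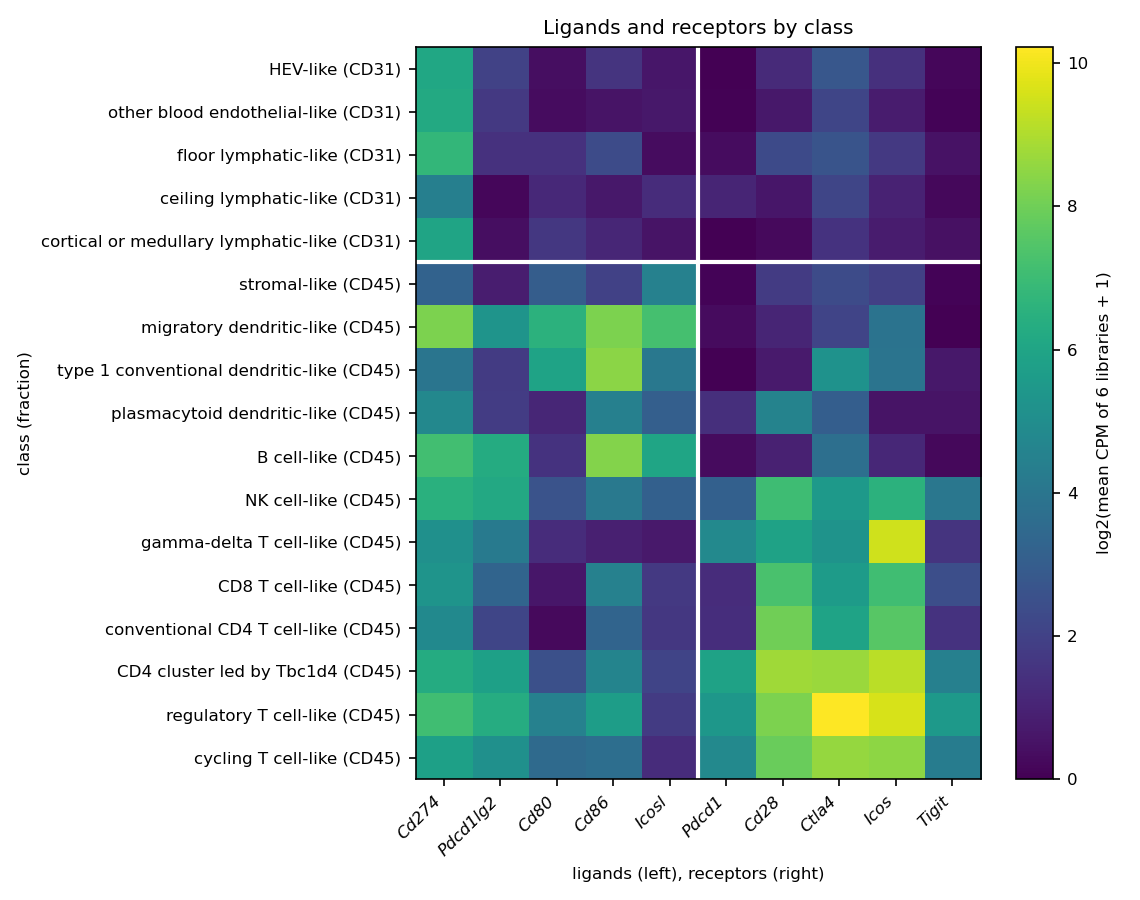
Mean level of each member in each fitted class, as log2 of the mean CPM of 6 libraries plus 1 (colour scale), with classes in rows and their fraction in brackets. The 5 ligands (left of the white line) differ in their brightest class of the CD45 libraries, which is migratory dendritic-like for Cd274, Cd80 and Icosl, type 1 conventional dendritic-like for Cd86 and regulatory T cell-like for Pdcd1lg2, and the 5 receptors (right) are brightest in T cell classes. Of the members, Cd274 is the one above 4 on this scale in all 5 endothelial classes.

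At day 3 of oxazolone, migratory dendritic-like cells carried more Cd274, Cd80 and Cd86 than at vehicle, while Icosl did not pass the test. In the migratory and type 1 conventional dendritic-like classes, 3 of the 9 pairs of ligand and class tested were called at day 3. Plasmacytoid dendritic-like cells, also fitted, are given further below and are not among the 9. Over both classes 0.642% of all genes tested were called, and all 3 ligand calls were in migratory dendritic-like cells. DESeq2 called 4 of the 9. In the CD45 libraries the class held 154, 118, 166, 167, 96 and 175 cells, and 22 of 9283 genes (0.237%) were called at day 3, 19 of them (0.205%) higher.

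Cd80, the ligand that Cd28 and Ctla4 share with Cd86, had 48.8 and 13.9 CPM at vehicle, 206 and 204 at day 3 and 42.1 and 49.5 at day 7. The 2 day 3 libraries lay more than 4-fold above each of the other 4 libraries, with no overlap (log2 change 2.76, SE 0.37, adjusted p = 0.0193, edgeR). The share of cells with a Cd80 UMI was 18.2 and 11 percent at vehicle, 44 and 46.7 at day 3 and 13.5 and 19.4 at day 7. It was 6.49 and 1.69 percent at vehicle, 16.9 and 14.4 at day 3 and 5.21 and 4 at day 7 when every cell was thinned to 1000 UMIs. In CD8 T cell-like cells, which should lack Cd80, the share was 0.102 to 0.562 percent.

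Cd86 had 164 and 98 CPM at vehicle, 549.7 and 575 at day 3 and 116 and 262 at day 7. Again both day 3 libraries were above all others, and at day 7 the library labelled Cre-positive stood between them and vehicle (log2 change 2.08, SE 0.34, adjusted p = 0.0261, edgeR). The share of cells with a Cd86 UMI was 48.1 and 29.7 percent at vehicle, 66.3 and 71.3 at day 3 and 28.1 and 41.1 at day 7. After thinning it was 13 and 10.2 percent at vehicle, 34.9 and 29.3 at day 3 and 10.4 and 12.6 at day 7. In CD8 T cell-like cells it was 7.51 to 14.1 percent unthinned and 1.67 to 2.87 percent thinned.

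Cd274, the ligand of Pdcd1, had 194 and 180.2 CPM at vehicle, 466 and 507 at day 3 and 182 and 249 at day 7. Its day 3 values did not overlap the rest either (log2 change 1.38, SE 0.23, adjusted p = 0.0261, edgeR). The share of cells with a UMI was 52.6 and 31.4 percent at vehicle, 72.3 and 77.2 at day 3 and 36.5 and 53.1 at day 7. After thinning it was 15.6 and 15.3 percent at vehicle, 33.1 and 31.7 at day 3 and 12.5 and 20 at day 7, against 3.1 to 4.62 percent of CD8 T cell-like cells. Pdcd1lg2, the other ligand of Pdcd1, had 23.5 and 8.91 CPM at vehicle, 81 and 72.6 at day 3 and 11.8 and 31.9 at day 7 beside 13 to 22 CPM in free RNA. Both day 3 values were the highest, but the test missed the threshold (log2 change 2.22, SE 0.43, adjusted p = 0.0584, edgeR), while DESeq2 gave an adjusted p of 0.0495. Icosl had 115 and 173 CPM at vehicle, 139.5 and 106 at day 3 and 155 and 195 at day 7, and day 3 and vehicle overlapped (log2 change -0.21, SE 0.26, adjusted p = 0.851, edgeR).

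**Figure D2:**
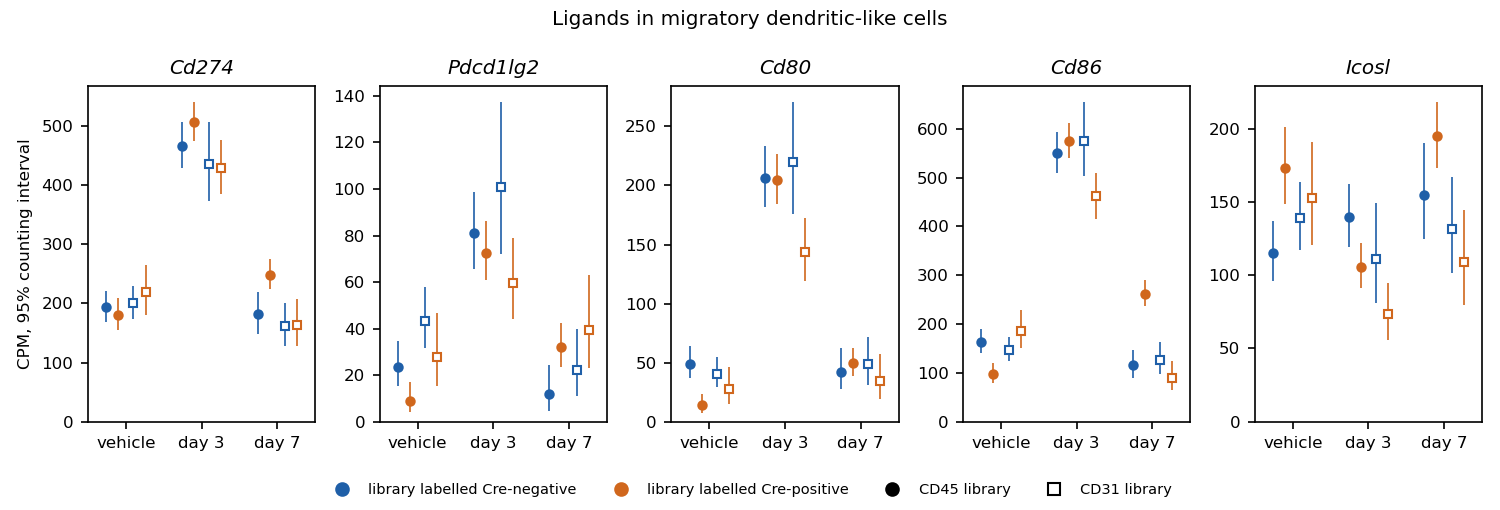
Level of each ligand in migratory dendritic-like cells (CPM, y axis, a separate scale per panel) by treatment (x axis), 1 point per library, with 95% Poisson intervals that cover counting error only. Colours give the label, filled circles the CD45 libraries and open squares the CD31 libraries. For Cd274, Pdcd1lg2, Cd80 and Cd86 all 4 day 3 points lie above all 8 others, and for Icosl they do not.

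The same class in the CD31 libraries was a second count on the same digests, over 126, 66, 63, 111, 69 and 56 cells, with 29 of 7682 genes (0.378%) called at day 3 and 18 (0.234%) called higher. Its 4 clusters were unevenly filled, and cluster 9 gave 19 and 17 of the cells at vehicle, 1 and 4 at day 3 and 19 and 7 at day 7, whose part in the result was not tested. Cd80 rose again, with 40.2 and 27.7 CPM at vehicle, 219 and 144 at day 3 and 48.4 and 34.7 at day 7 (log2 change 2.41, SE 0.43, adjusted p = 0.000508, edgeR). Cd86 had 148 and 186 CPM at vehicle, 575 and 461 at day 3 and 127 and 90.3 at day 7 and also passed (log2 change 1.65, SE 0.41, adjusted p = 0.0483, edgeR). Cd274 had 200.3 and 219.8 CPM at vehicle, 436 and 429.6 at day 3 and 161 and 164 at day 7, with both day 3 values the highest, but did not pass (log2 change 1.06, SE 0.40, adjusted p = 0.529). Neither did Pdcd1lg2, at 43.1 and 27.7 CPM at vehicle, 101 and 59.8 at day 3 and 22.2 and 39.3 at day 7 (log2 change 1.13, SE 0.44, adjusted p = 0.607). Icosl had 139 and 153 CPM at vehicle, 111 and 73.2 at day 3 and 131 and 109 at day 7, lowest in the day 3 library labelled Cre-positive (log2 change -0.67, SE 0.40, adjusted p = 0.999, edgeR).

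These calls rest on few libraries. Without the day 3 library labelled Cre-negative, the CD45 calls of Cd274 (1.35, adjusted p = 0.136) and Cd86 (2.0, 0.0811) were lost at a log2 change close to that reported. Without that labelled Cre-positive, Cd274 was lost likewise (1.38, 0.0563). The Cd80 change was 3.91 without the vehicle library labelled Cre-negative and 2.01 without that labelled Cre-positive, called both times, and for Cd86 the same 2 values were 2.81 and 1.49. Pdcd1lg2 passed without the vehicle library labelled Cre-negative (3.23, adjusted p = 1.46e-05), without the day 3 library labelled Cre-positive (adjusted p = 0.0188) and without either day 7 library (2.32e-06 and 5.06e-08). It did not pass without the vehicle library labelled Cre-positive (1.53, adjusted p = 0.106) or the day 3 library labelled Cre-negative (2.13, 0.173). Without both the vehicle and day 7 libraries labelled Cre-negative and without the label term, Cd80 (3.92, adjusted p = 0.00576), Cd86 (2.56, 0.0176) and Pdcd1lg2 (3.14, 0.0153) passed and Cd274 (1.47, 0.14) did not. Under 3 other settings all 3 calls were lost with little change in size. With no removal of high doublet scores, the log2 changes of Cd80, Cd86 and Cd274 were 2.65, 2.06 and 1.38 (adjusted p = 0.0661, 0.0745 and 0.0661). With free RNA subtracted they were 2.80, 2.12 and 1.39 (adjusted p = 0.0589, 0.0826 and 0.0826). Without a cluster of the class led by immunoglobulin genes, a choice made after the data were seen, they were 2.66, 2.03 and 1.24 (adjusted p = 0.051, 0.0543 and 0.0543). In the CD31 libraries, leaving out the day 3 library labelled Cre-negative (2.45, 0.119) or Cre-positive (2.37, 0.0619) ended the Cd80 call. The Cd86 call there was lost in 9 of 16 alternatives, whose log2 changes ran from 1.38 to 1.92 over all 16. Cd274, not called there, passed without the vehicle library labelled Cre-negative (1.08, adjusted p = 0.0387).

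Other cell types were looked for among the dendritic cells. The summed level of 6 migratory dendritic markers was itself higher at day 3, 7318 to 7435 CPM against 5577 to 5945 at vehicle and 5949 to 6311 at day 7, and its part in the result was not tested. The summed level of the 5 T cell markers was 9.04 to 13.9 CPM at vehicle, 14.4 to 19.2 at day 3 and 8.47 to 11.8 at day 7. That of 6 macrophage markers was 28.7 to 41.6, 21.7 to 28.3 and 38.7 to 53.4, and that of 6 B cell markers 5.94 to 17.2, 15.5 to 16.7 and 3.36 to 44.3. Of the 5 regulatory T cell markers, Foxp3, Lrrc32 and Gpr83 were at 0 in all 6 libraries. The sum of that list was 33.7 to 57.0 CPM at vehicle, 96.1 to 154 at day 3 and 48.8 to 78.8 at day 7. It came almost wholly from Il2ra, a receptor chain that dendritic cells can also carry, with 53.4 and 29.7 CPM at vehicle, 94.4 and 148 at day 3 and 45.4 and 72.3 at day 7. The part of these in the result was not tested.

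The migratory dendritic-like cells of the CD45 libraries came from 5 clusters of the myeloid cells, of 114 to 234 cells and numbered 1 to 5 here, whose share of the class differed between libraries. In cluster 1, led by the chemokines Ccl17 and Ccl22, Cd80 had 20.4 and 20.1 CPM at vehicle, 143 and 192 at day 3 and 12.9 and 27.9 at day 7. Cd86 there had 202 and 151 at vehicle, 722 and 932 at day 3 and 96.9 and 353 at day 7. In cluster 2, led by Efna5 and Dkk2, Cd80 had 119 and 29.8 CPM at vehicle, 360.3 and 403 at day 3 and 122 and 117 at day 7. Cd86 there had 219 and 129 at vehicle, 584 and 842 at day 3 and 189.5 and 507 at day 7. Both day 3 libraries were above the other 4 for both genes in these clusters. Cluster 3, led by Ighg2b and Zdhhc14, had 43.9 and 5.38 CPM at vehicle, 116 and 130.4 at day 3 and 60.5 and 37.1 at day 7 of Cd80. Its Cd86, at 145 and 88.7 at vehicle, 94.9 and 232 at day 3 and 109 and 164 at day 7, overlapped between treatments. Cluster 4, led by St18 and Zeb2, had 87 and 14.8 CPM at vehicle, 58.2 and 102 at day 3 and 18.1 and 35.7 at day 7 of Cd80, where day 3 and vehicle overlapped. It had 103 and 66.4 at vehicle, 330.0 and 219 at day 3 and 181 and 112 at day 7 of Cd86, where they did not. Cluster 5 was led by Ighg1, Slpi and Jchain, of which the first and the last are plasma cell genes, and its Igkc stood at 8100 CPM against 214 in the other clusters. It also held the 6 migratory dendritic markers, at a summed 6436 CPM against 4454 to 9001 in the other clusters, and the 5 plasma cell markers at 1216 against 53.3 to 89.2. In the whole class the plasma cell markers summed to 676 CPM in the day 7 library labelled Cre-positive, where Jchain alone had 543, and to 45.4 to 85 in the other 5. The changes without this cluster are given above. There Cd80 had 9.7 and 9.93 CPM at vehicle, 75.2 and 187 at day 3 and 20.6 and 31.1 at day 7. Cd86 had 67.9 and 79.4 at vehicle, 244 and 402 at day 3 and 82.6 and 74.8 at day 7, and both day 3 libraries were the highest for each gene. Cd274 had 216 and 131 CPM at vehicle, 305 and 560.1 at day 3 and 136 and 256 at day 7 in cluster 1. In cluster 2 it had 239 and 629.9 at vehicle, 741 and 741 at day 3 and 569 and 547 at day 7. In cluster 3 it had 162 and 37.7 at vehicle, 243 and 264 at day 3 and 115 and 94 at day 7, and in cluster 4 217 and 177 at vehicle, 408 and 500.3 at day 3 and 253 and 210.0 at day 7. In these 4 clusters its day 3 libraries were the highest 2, while in cluster 5, with 58.2 and 19.9 at vehicle, 150.4 and 151 at day 3 and 82.6 and 168 at day 7, a day 7 library exceeded them. Pdcd1lg2 was at 0 in cluster 5 in all 6 libraries and reached 18.2 and 10 CPM at vehicle, 121 and 95 at day 3 and 19.4 and 40.6 at day 7 in cluster 1. The clusters were drawn from the same cells, so these values describe them and carry no test.

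Single cells tended to hold the pair together. At day 3, Cd86 was detected in 84.9% of the 73 cells with Cd80 and 51.6% of those without in the library labelled Cre-negative, and in 85.9% of 78 and 58.4% in that labelled Cre-positive. The same shares were 53.6% and 46.8%, and 38.5% and 28.6%, at vehicle, and 61.5% and 22.9%, and 67.6% and 34.8%, at day 7. A cell with more UMIs is likelier to show both genes, and these shares were not corrected for that.

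At day 7 none of the 9 ligand pairs in the migratory and type 1 conventional dendritic-like classes was called by edgeR (0.0297% of all genes were) or by DESeq2, with 1 of 9 at an unadjusted p under 0.05. In migratory dendritic-like cells the day 7 changes in the CD45 libraries were 0.65 for Cd80, 0.52 for Cd86 and 0.21 for Cd274 on the log2 scale, with SEs of 0.41, 0.35 and 0.23. Leaving out the vehicle library labelled Cre-negative called Cd80 (1.77, adjusted p = 0.0306), and leaving out the day 7 library labelled Cre-negative called Cd86 (1.16, adjusted p = 0.032). Between the labels, 0 of 9 pairs were called by edgeR (0.184% of all genes were), 0 by DESeq2 and 0 had an unadjusted p under 0.05.

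Type 1 conventional dendritic-like cells, which specialise in showing antigen to CD8 T cells, came from clusters of 108 and 98 cells. The smallest library held 20 of them. Cd86 was detected in 87 to 100 percent of these cells (15.8 to 43.8 percent thinned). Its level was 278 and 402 CPM at vehicle, 309 and 402 at day 3 and 333 and 355 at day 7, with no order by treatment. Their Cd80 had 58 and 53.1 CPM at vehicle, 30.4 and 48.7 at day 3 and 75.4 and 99.7 at day 7, highest at day 7 and lowest at day 3 (log2 change 0.71, SE 0.28, unadjusted p = 0.0215, adjusted p = 0.668 for day 7, edgeR). Cd274 in them was 2.6 to 39.5 CPM beside 26.5 to 42.2 CPM in free RNA, and Icosl had 21.1 and 24 at vehicle, 9.12 and 8.11 at day 3 and 5.2 and 29.2 at day 7. Type 2 conventional dendritic-like, macrophage-like and monocyte-like cells were too few in at least 1 library to be fitted (fewer than 20 cells). Their Cd86 was 536 and 515 CPM at vehicle, 139 and 1117 at day 3 and 553 and 712 at day 7 in the type 2 class. It was 506 and 534 CPM at vehicle, 514 and 1025 at day 3 and 653 and 539.5 at day 7 in the macrophage-like class and 262 and 319 at vehicle, 330.4 and 929 at day 3 and 314 and 324 at day 7 in the monocyte-like class. In all 3, the day 3 library labelled Cre-positive was the highest. Cd86 in plasmacytoid dendritic-like cells was 9.71 and 5.03 CPM at vehicle, 24.1 and 61.9 at day 3 and 8.17 and 15.4 at day 7, beside 33.4 to 79.5 CPM in free RNA. Both day 3 libraries were above the rest, and the test did not pass (log2 change 2.34, SE 0.62, unadjusted p = 0.000413, adjusted p = 0.126, edgeR), where 0.242% of genes in the class were called.

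On endothelium, Cd274 was the member that stood above the level of free RNA, and it did so unevenly between vessel types. No ligand was called in the HEV-like, other blood endothelial-like or lymphatic endothelial-like cells: edgeR called 0 of 11 pairs at day 3 (0.0994% of all genes were called), 0 of 11 at day 7 (0%) and 0 of 11 between labels (0.00946%). DESeq2 called 0 of 11 in each. At an unadjusted p under 0.05 edgeR had 0, 2 and 0 of them. Leaving out the vehicle and day 7 libraries labelled Cre-negative together with the label term, which leaves 4 libraries, called Cd274 in other blood endothelial-like cells at day 3 (-0.51, adjusted p = 0.0308). It also passed for Cd274 in lymphatic cells at day 7, where it compares 1 library with 1 (-1.25, adjusted p = 0.0113), and for Cd80 in lymphatic cells at day 3 (6.48, adjusted p = 0.0437, from 2 and 0 CPM at vehicle, 0.81 and 3.13 at day 3 and 0.522 and 1.86 at day 7). The last is a fitted change against a vehicle library at 0, so its size depends on the prior count.

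HEV-like cells, the vessels through which lymphocytes enter the node, had Cd274 at 56.1 and 96 CPM at vehicle, 73 and 75.9 at day 3 and 46.6 and 54.5 at day 7. Free RNA in the same libraries held 45.5 and 53.2 at vehicle, 46.4 and 40.3 at day 3 and 47.8 and 35.6 at day 7. The day 7 library labelled Cre-negative was at its free level, and the day 7 change did not pass (log2 change -0.51, SE 0.20, unadjusted p = 0.0336, adjusted p = 0.987, edgeR). It was -0.13 without the vehicle library labelled Cre-positive (adjusted p = 1) and -0.86 without that labelled Cre-negative (0.0911). Other blood endothelial-like cells had 71.8 and 95.4 CPM at vehicle, 68.6 and 63.8 at day 3 and 83.7 and 54 at day 7. Both day 3 values were below both vehicle values, and the day 7 values lay on either side of those of day 3. The share of cells with a Cd274 UMI was 30.9 to 41.8 percent in HEV-like cells, at median depths of 6817 to 10880 UMIs, against 9.14 to 12.9 percent in conventional CD4 T cell-like cells at 3859 to 4915 UMIs. Thinned to 1000 UMIs per cell, the shares were 4.66 to 8.17 percent in HEV-like, 5.2 to 8.43 percent in other blood endothelial-like and 0 to 2.79 percent in conventional CD4 T cell-like cells.

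Among the lymphatic classes, floor cells, which line the inner side of the sinus under the capsule, had Cd274 at 137 and 133 CPM at vehicle, 128 and 99.4 at day 3 and 87.7 and 64 at day 7. Ceiling cells, on its outer side, had 15.7 and 22.2 at vehicle, 29.3 and 13.9 at day 3 and 21.2 and 19 at day 7. Every floor value was above every ceiling value and above the free RNA of its own library. Cortical or medullary lymphatic-like cells had 57.2 and 82.1 at vehicle, 85.6 and 45.1 at day 3 and 61.6 and 39.3 at day 7. In floor cells both day 7 libraries were below the other 4 (log2 change -0.86, SE 0.22, unadjusted p = 0.00403, adjusted p = 1, edgeR). Without the vehicle library labelled Cre-negative this passed (-1.02, adjusted p = 0.0301). Thinned, the share of floor cells with a Cd274 UMI was 10.9 and 11.7 percent at vehicle, 12.9 and 11.6 at day 3 and 8.73 and 6.74 at day 7, against 0.746 to 3.14 percent of ceiling cells.

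**Figure D3:**
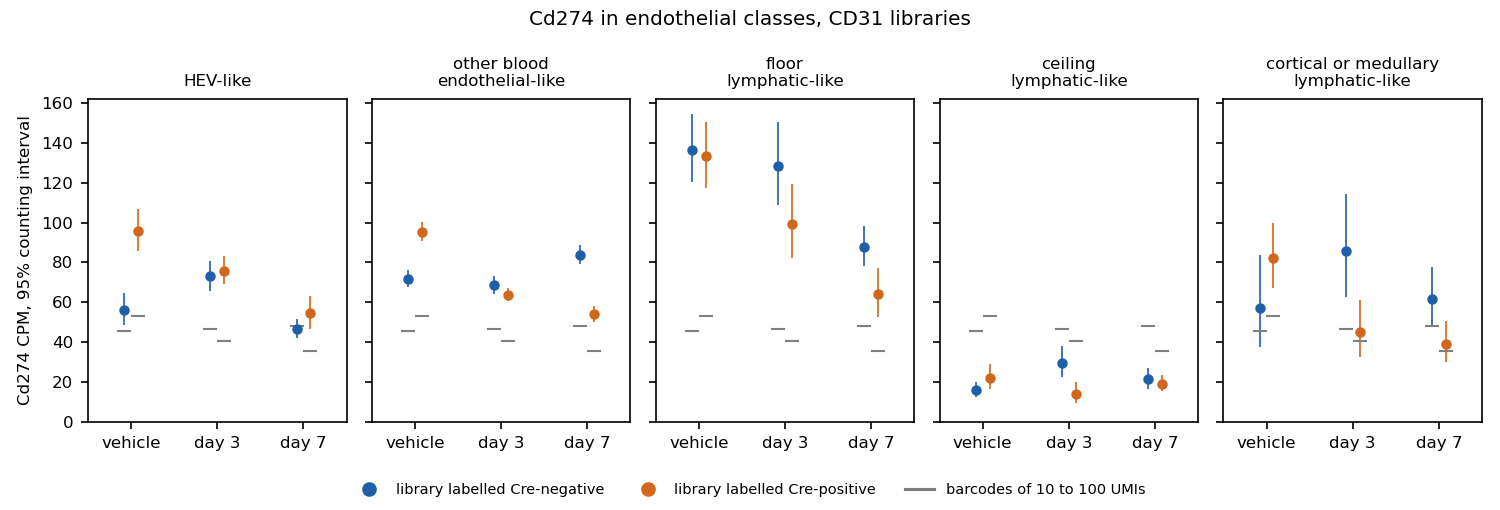
Cd274 level (CPM, 1 shared y axis) by treatment (x axis) in 5 endothelial classes of the CD31 libraries, 1 point per library, coloured by label, with 95% Poisson intervals that cover counting error only. Grey lines give the Cd274 level in barcodes of 10 to 100 UMIs of the same library, as a measure of free RNA. All 6 floor lymphatic-like points lie above their grey lines and all 6 ceiling lymphatic-like points below them.

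The other ligands were below free RNA on endothelium, apart from Cd80 in 2 of 30 values of class and library. Cd86 had 0.189 to 6.46 CPM in HEV-like and 0.206 to 0.618 in other blood endothelial-like cells, beside 19.8 to 39.7 in free RNA. In lymphatic cells it had 4.91 and 1.46 CPM at vehicle, 1.35 and 1.68 at day 3 and 0.652 and 0.124 at day 7, all under the free level (log2 change -2.98, SE 0.76, unadjusted p = 0.00356, adjusted p = 1 for day 7, edgeR). Pdcd1lg2 had 2 to 3.51 CPM in HEV-like and 1.14 to 3.02 in other blood endothelial-like cells beside 4.12 to 12.6 free. Icosl reached at most 1.92 CPM in an endothelial class, beside 5.56 to 9.33 free, and Cd80 at most 8.81 CPM, in 1 library of the cortical or medullary class, beside 3 to 7.93. The response of lymphatic to that of other blood endothelial-like cells at day 3 was compared for the 5 ligands in 1 model, and edgeR called 0 of 5 (0.00602% of all genes were), with 0 at an unadjusted p under 0.05 and 0 by DESeq2. For Cd274 the difference was 0.09 on the log2 scale (SE 0.20).

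B cell-like cells held all ligands but Cd80 above the free RNA of each library. For Cd274, Pdcd1lg2 and Icosl the 2 highest CD45 libraries were the same, and these were of different treatments. Cd274 had 124 and 228 CPM at vehicle, 116 and 95.4 at day 3 and 177 and 102 at day 7 in the CD45 libraries. It had 108 and 255 at vehicle, 103 and 98.1 at day 3 and 161 and 96 at day 7 in the CD31 libraries. In both fractions the vehicle library labelled Cre-positive and the day 7 library labelled Cre-negative were the highest. Pdcd1lg2 had the same 2 libraries on top, with 74.4 and 109 CPM at vehicle, 60.9 and 59.6 at day 3 and 97.3 and 62.6 at day 7 in CD45. In CD31 it had 65.7 and 117 at vehicle, 56.4 and 59.8 at day 3 and 99.8 and 63.6 at day 7. So did Icosl, with 56.1 and 75.6 CPM at vehicle, 59.2 and 53.7 at day 3 and 73.6 and 61.6 at day 7 in CD45. These are also the libraries with 19 and 8 germinal centre B cell-like cells, against 213 and 255 in the other libraries of vehicle and day 7. The day 3 libraries, which are not high for these 3 genes, held as few, 22 and 25. The part of these cells in the result was not tested. Over both fractions and the 3 contrasts, edgeR called 0 of 30 tests of a ligand in B cell-like cells, where 0.0317% of all tests were called. At an unadjusted p under 0.05 there were 7, and DESeq2 called 0. For Cd274 at day 3 the CD45 fit gave log2 change -0.74, SE 0.29, adjusted p = 0.476 (edgeR), which became -0.00279 without the vehicle library labelled Cre-positive and -1.35 (adjusted p = 0.037) without that labelled Cre-negative. It also passed without either day 7 library, and in 5 of 16 alternatives in all.

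Cd86 in B cell-like cells had 322 and 433 CPM at vehicle, 150.2 and 439 at day 3 and 263 and 297 at day 7 in the CD45 libraries. It had 278 and 455 at vehicle, 149 and 355 at day 3 and 258 and 219 at day 7 in the CD31 libraries. The day 3 library labelled Cre-negative was the lowest in both. Over the labels the CD45 fit gave log2 change 0.62, SE 0.22, adjusted p = 0.296 (edgeR), with the library labelled Cre-positive higher at 3 of 3 time points in CD45 and at 2 of 3 in CD31. Without the day 3 library labelled Cre-negative the change was 0.22, and without the day 7 library labelled Cre-negative it was 0.87 and passed. The test passed in 3 of 15 alternatives in all. Cd80 in B cell-like cells of the CD45 libraries was 0.826 to 3.73 CPM, below the 6.49 to 15.3 CPM of free RNA. In the CD31 libraries it was above free RNA in 1 of 6.

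**Figure D4:**
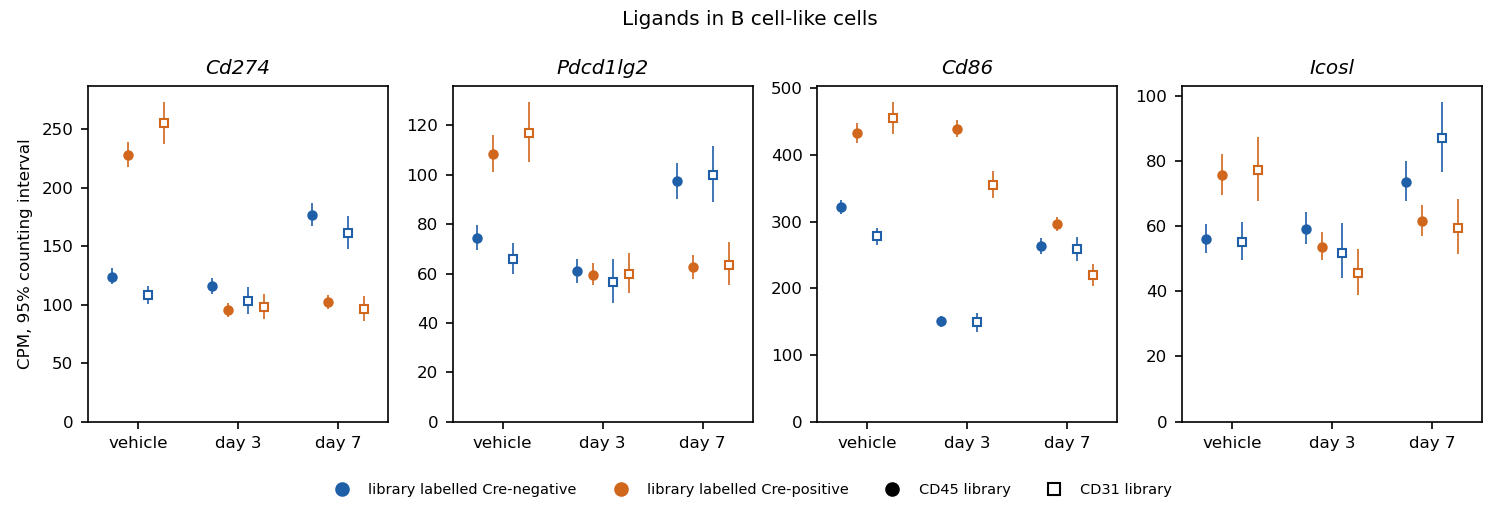
Level of 4 ligands in B cell-like cells (CPM, y axis, a separate scale per panel) by treatment (x axis), 1 point per library, with 95% Poisson intervals that cover counting error only. Colours give the label, filled circles the CD45 libraries and open squares the CD31 libraries. For Cd274 the vehicle libraries labelled Cre-positive and the day 7 libraries labelled Cre-negative are the highest in both fractions.

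In the stromal-like cells of the CD45 libraries Icosl was called lower at day 3, at a level near that of free RNA. It had 19 and 29.9 CPM at vehicle, 6.15 and 11.8 at day 3 and 29.2 and 32.9 at day 7, with both day 3 libraries below the other 4 (log2 change -1.43, SE 0.22, adjusted p = 0.0207, edgeR). Free RNA held 25.9 and 26 CPM at vehicle, 13.6 and 20.6 at day 3 and 30.1 and 43.6 at day 7, which was above the stromal-like level in 5 of 6 libraries and likewise lowest at day 3. With free RNA subtracted the change was -1.58 (adjusted p = 0.0297). In this class 1503 of 16275 genes (9.24%) were called at day 3, so nothing about the members is read from this call. Without the day 3 library labelled Cre-negative Icosl did not pass (-1.22, adjusted p = 0.206), nor without that labelled Cre-positive (-1.65, 0.0961). In all 26 fitted sets of class and fraction and the 3 contrasts, the 6 calls among the members were this one and the 5 in migratory dendritic-like cells. Over the same sets 0.311% of all tests were called.

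The receptors were carried by T cells, each with its own order of classes. In regulatory, conventional CD4 and CD8 T cell-like cells of the CD45 libraries, edgeR called 0 of 14 pairs of receptor and class at day 3 (0.0157% of all genes were called), 0 of 14 at day 7 (0%) and 0 of 14 between labels (0.257%), with 0 in each by DESeq2. At an unadjusted p under 0.05 edgeR had 1, 1 and 4 of them.

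Cd28, which passes on the signal of Cd80 and Cd86, was highest in the CD4 cluster led by Tbc1d4, which carries Pdcd1 and Icos and was not given a type name. There it had 429.8 and 501 CPM at vehicle, 339 and 449.8 at day 3 and 396 and 511 at day 7 in the CD45 libraries. Regulatory T cell-like cells had 322 and 329 at vehicle, 243 and 283 at day 3 and 264 and 327 at day 7. Conventional CD4 cells had 233 and 271 at vehicle, 229 and 279 at day 3 and 245 and 272 at day 7, which overlaps. Gamma-delta T cell-like cells had 43.2 to 78.3. CD8 T cell-like cells had 129 and 168 CPM at vehicle, 140.2 and 193 at day 3 and 134 and 172 at day 7. The library labelled Cre-positive was higher at 3 of 3 time points (log2 change 0.33, SE 0.08, unadjusted p = 0.00153, adjusted p = 0.0871, edgeR). The CD31 libraries had 131 and 171 at vehicle, 151 and 184 at day 3 and 151 and 173 at day 7, with the same order in each pair (log2 change 0.30, SE 0.13, adjusted p = 1). It passed in CD45 without the day 7 library labelled Cre-positive (0.37, adjusted p = 0.0493) and with library totals in place of TMM scaling (0.0348). B cell-like cells, which should lack Cd28, had 0.468 to 1.55 CPM beside 33.7 to 49 in free RNA. They thus lay far under the free level, and a value under it elsewhere is not shown to be background.

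Ctla4, which regulatory T cells use to take up Cd80 and Cd86 from other cells, was 1285 and 1252 CPM at vehicle, 1105 and 1482 at day 3 and 946 and 1109 at day 7 in regulatory T cell-like cells. Every one of these values was above every value of the Tbc1d4 cluster, 488 and 370.3 at vehicle, 345 and 441 at day 3 and 416 and 426 at day 7. Conventional CD4 cells had 81.9 and 66.3 CPM at vehicle, 46.1 and 70 at day 3 and 46.3 and 47.1 at day 7. This was under the free RNA of the same library in 5 of 6, and free RNA had 51.5 to 134 CPM (log2 change -0.64, SE 0.18, unadjusted p = 0.0025, adjusted p = 0.995 for day 7, edgeR). The day 7 change was -0.65 (SE 0.13) without the day 3 library labelled Cre-negative and -0.65 (SE 0.13) without that labelled Cre-positive. It passed both times at nearly the reported size and a smaller SE, so nothing is read from the pass. The day 7 change of Ctla4 was -0.33 without the vehicle library labelled Cre-negative (adjusted p = 0.996) and -0.94 without that labelled Cre-positive (0.871). At day 3 it was called without the library labelled Cre-positive (-0.82, adjusted p = 0.0013). The day 3 response of regulatory against conventional CD4 cells was compared for the 5 receptors, and edgeR called 0 of 5 (0.27% of all genes were; 1 at an unadjusted p under 0.05, and 0 by DESeq2). The 1 was Ctla4, with a difference of 0.47 on the log2 scale (SE 0.17, adjusted p = 0.397). NK cell-like cells had 34.2 and 18.8 CPM at vehicle, 25.6 and 31.8 at day 3 and 79.6 and 77.1 at day 7, of which 1 exceeded the free RNA of its library. Both day 7 libraries were the highest (log2 change 1.64, SE 0.39, unadjusted p = 0.000751, adjusted p = 0.515, edgeR).

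Icos was high in regulatory, gamma-delta and Tbc1d4-cluster cells alike, which do not differ beyond their spread. It had 833 and 747 CPM at vehicle, 717 and 1031 at day 3 and 521 and 836 at day 7 in regulatory T cell-like cells. Gamma-delta T cell-like cells had 615 and 807 at vehicle, 708 and 1119.5 at day 3 and 516 and 510.3 at day 7 and the Tbc1d4 cluster had 501 and 785 at vehicle, 418 and 588 at day 3 and 582 and 539 at day 7. The day 3 library labelled Cre-positive was the highest in the first and second of these classes. It was so in conventional CD4 cells too, with 167 and 218 CPM at vehicle, 111 and 335 at day 3 and 147 and 156 at day 7. CD8 cells, with 122 and 157 at vehicle, 84.3 and 218 at day 3 and 122 and 116 at day 7, showed the same. Over the labels the change was 0.63 in conventional CD4 cells (SE 0.19, adjusted p = 0.174, edgeR) and 0.47 in CD8 cells (0.287). It rests on day 3: without the day 3 library labelled Cre-negative the change in conventional CD4 cells was 0.18, and without that labelled Cre-positive 0.18. For day 3 against vehicle the sign turned with the library left out: 0.63, adjusted p = 0.000998 without that labelled Cre-negative and -0.74, adjusted p = 0.000239 without that labelled Cre-positive. In regulatory T cell-like cells Icos was called between labels without the vehicle library labelled Cre-negative (0.55, adjusted p = 0.0347) or Cre-positive (0.56, adjusted p = 0.0339). In CD8 cells it was called without the vehicle library labelled Cre-negative (0.58, adjusted p = 0.0131) or Cre-positive (0.58, adjusted p = 0.0107). It was also called without the day 7 library labelled Cre-negative (0.80, adjusted p = 0.00585) or Cre-positive (0.80, adjusted p = 0.000191). The conventional CD4 cells of the CD31 libraries had 139 and 220.0 CPM at vehicle, 103 and 319 at day 3 and 207 and 138 at day 7 (log2 change 0.55, SE 0.23, adjusted p = 1 over the labels).

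Conventional CD4 cells came from several clusters, and the day 3 library labelled Cre-positive drew 20 of its 423 such cells from cluster 4, against 308 of 802 in the day 3 library labelled Cre-negative. The part of that in the Icos and Ctla4 values of this class was not tested. CD8 cells also came from several clusters. Cluster 2 gave 332 of 1067 and 151 of 975 of them at vehicle, 273 of 959 and 38 of 632 at day 3 and 595 of 1356 and 239 of 985 at day 7, the smaller share in the library labelled Cre-positive each time. The part of that in the differences of Cd28, Icos and Tigit between labels in CD8 cells was not tested.

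Pdcd1, the receptor of Cd274 and Pdcd1lg2, marked the Tbc1d4 cluster, with 57.8 and 62.6 CPM at vehicle, 44.7 and 58.4 at day 3 and 67.3 and 62.4 at day 7. Regulatory T cell-like cells had 43.6 and 58.2 at vehicle, 41.1 and 28.7 at day 3 and 46.9 and 30.8 at day 7. Gamma-delta T cell-like cells had 20.7 to 37.3. In conventional CD4 cells it stayed at 0.909 to 1.86 CPM and in CD8 cells at 1.13 to 1.96, beside 1.2 to 9.1 CPM in free RNA. Tigit was led by regulatory T cell-like cells, with 44.8 and 45.2 CPM at vehicle, 45.8 and 54.9 at day 3 and 38.1 and 31.7 at day 7. The Tbc1d4 cluster followed with 11.9 to 30.1 and NK cell-like cells with 11.3 to 18.2, whose ranges overlap. In CD8 cells Tigit had 4.23 and 5.53 CPM at vehicle, 3.25 and 6.46 at day 3 and 2.27 and 5.29 at day 7. The library labelled Cre-positive was the higher at each time point (log2 change 0.76, SE 0.26, unadjusted p = 0.0149, adjusted p = 0.177, edgeR). Conventional CD4 cells had 0.532 to 4 CPM.

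**Figure D5:**
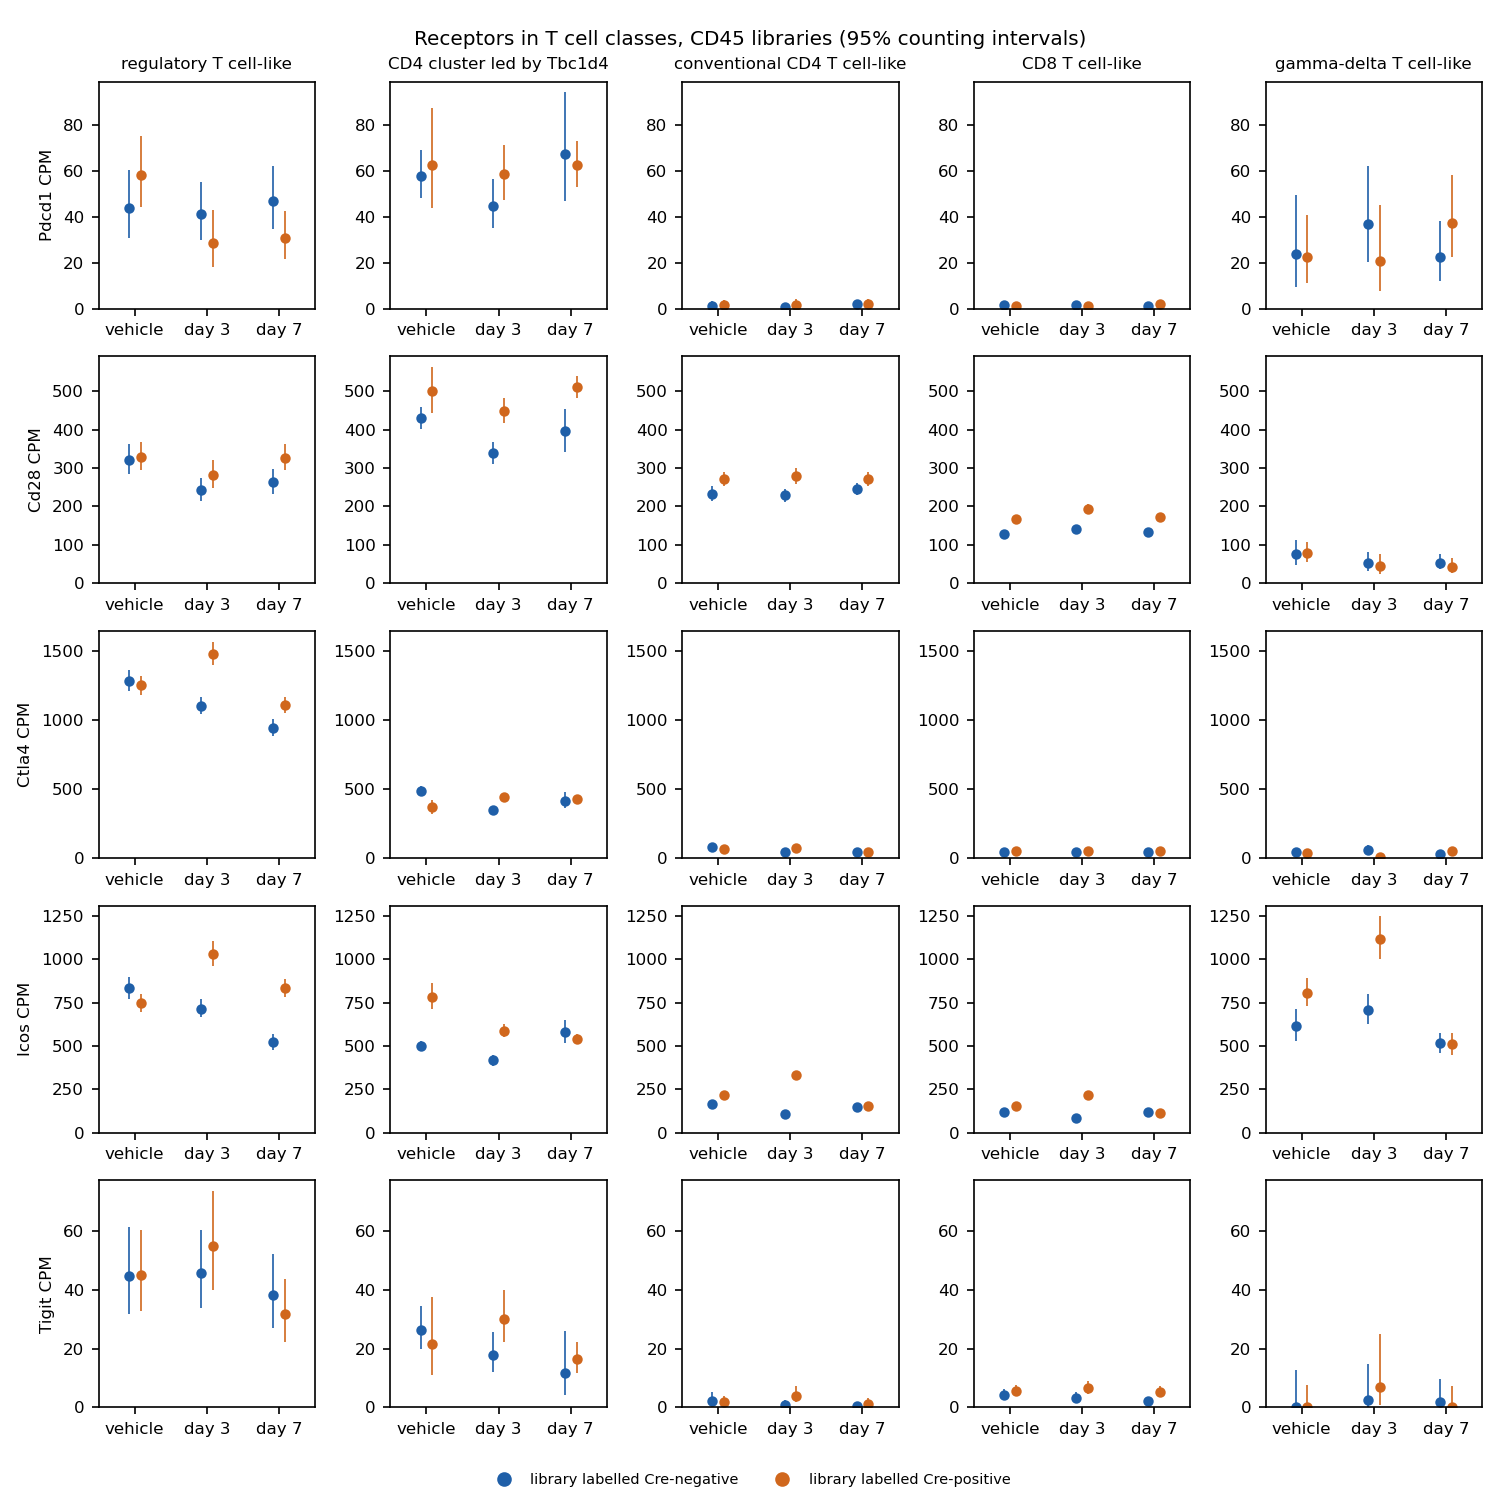
Level of the 5 receptors (rows, CPM, the y axis shared within a row) by treatment (x axis) in 5 T cell classes of the CD45 libraries (columns), 1 point per library, coloured by label, with 95% Poisson intervals that cover counting error only. Ctla4 and Tigit are highest in regulatory T cell-like cells, Pdcd1 and Cd28 in the Tbc1d4 cluster. In the Icos row the day 3 library labelled Cre-positive is the top point in the regulatory, conventional CD4, CD8 and gamma-delta panels.

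Some T cells carried ligands as well. Cd274 in regulatory T cell-like cells had 167 and 178 CPM at vehicle, 110.2 and 146 at day 3 and 106 and 97.6 at day 7, beside 26.5 to 42.2 free (log2 change -0.74, SE 0.21, unadjusted p = 0.00248, adjusted p = 0.999 for day 7, edgeR). Pdcd1lg2 had 62.6 to 109 CPM in regulatory T cell-like cells and 50.8 to 93.5 in NK cell-like cells, both above its free level of 13 to 22. In conventional CD4 cells it lay under that level, with 5.49 and 2.03 CPM at vehicle, 6.06 and 1.6 at day 3 and 3.99 and 0.93 at day 7. At 3 of 3 time points the lower value was that labelled Cre-positive (log2 change -1.79, SE 0.43, unadjusted p = 0.000871, adjusted p = 0.105, edgeR). In gamma-delta T cell-like cells Cd274 had 10.2 and 30.9 CPM at vehicle, 47.4 and 65.7 at day 3 and 17.2 and 33.4 at day 7, both day 3 libraries being the highest (log2 change 1.38, SE 0.45, adjusted p = 0.713).

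Receptor counts in endothelial cells were under free RNA, apart from low counts of Pdcd1 in 1 and Tigit in 3 of 30 values. Ctla4 was 4.16 to 8.45 CPM in HEV-like cells beside 25.2 to 80.6 free, and Icos 0.319 to 4.09 beside 14.4 to 50.3. Migratory dendritic-like cells of the CD45 libraries likewise had 5.05 to 21.7 CPM of Icos beside 43.8 to 74.7 free. In the CD31 libraries their Icos was above free RNA in 2 of 6.

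The wider system was read from a list of 32 other costimulatory and checkpoint genes. In migratory dendritic-like cells of the CD45 libraries, 2 of the 17 tested were called at day 3, both higher, and the median change of the 17 was 0.53 on the log2 scale beside 0.0015 over all genes tested, of which 0.237% were called. One was Tnfsf4 (OX40 ligand), with 7.23 and 9.9 CPM at vehicle, 31.7 and 148 at day 3 and 10.1 and 16.9 at day 7 (log2 change 3.20, SE 0.44, adjusted p = 0.0193, edgeR). The other was Cd200, ligand of an inhibitory receptor of myeloid cells, with 91.3 and 49.5 at vehicle, 259.8 and 246 at day 3 and 65.6 and 104 at day 7 (log2 change 1.85, SE 0.30, adjusted p = 0.0261). Tnfsf4 was high in 1 day 3 library above all, that labelled Cre-positive. In the CD31 libraries, where the median change was 0.17, 1 of 15 was called (0.378% of all genes were), Tnfsf9 (4-1BB ligand), with 19.2 and 11.9 CPM at vehicle, 85.8 and 68.3 at day 3 and 8.07 and 23.1 at day 7 (log2 change 2.23, SE 0.49, adjusted p = 0.0151). Tnfsf4 and Cd200 there had changes in the same direction that did not pass (adjusted p = 0.436 and 0.322). In HEV-like, other blood and lymphatic endothelial-like cells, where 17 to 23 of the list were tested, edgeR called 0 of 174 tests over the 3 contrasts, with 11 at an unadjusted p under 0.05. Of all genes in these classes, 0.0994% were called at day 3, 0% at day 7 and 0.00946% between labels.

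In the other fitted classes 4 tests of this list were called. In stromal-like cells at day 3 they were 2 of the 27 tested, where 9.24% of all genes were called, and nothing about the list is read from them. Nectin2, an adhesion molecule that also binds Tigit, was higher (log2 change 1.52, SE 0.22, adjusted p = 0.0169, edgeR), and Rgmb, which binds the protein of Pdcd1lg2, was lower (log2 change -1.11, SE 0.15, adjusted p = 0.0154). In cycling T cell-like cells Cd96, a receptor of the same nectin family of ligands as Tigit, was lower at day 3 (log2 change -1.20, SE 0.27, adjusted p = 0.0364), where 2.15% of all genes were called. In gamma-delta T cell-like cells Cd48, a ligand of Cd244a and Cd2, had 427 and 227 CPM at vehicle, 519 and 252 at day 3 and 471 and 306 at day 7 and was lower in the libraries labelled Cre-positive (log2 change -0.96, SE 0.18, adjusted p = 0.0187), where 0.618% of all genes were called.

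A list of 12 interferon and signalling genes was set beside Cd274, which interferon is known to induce. In migratory dendritic-like cells edgeR called 0 of 12 at day 3 in the CD45 libraries (5 at an unadjusted p under 0.05) and 0 of 11 in the CD31 libraries (1), with medians of 0.44 and 0.27 on the log2 scale. Of all genes tested there, 0.237% and 0.378% were called. In HEV-like cells 1 of 12 was called higher, where 0.329% of all genes were called: Cxcl10, a chemokine that draws activated T cells, with 72.8 and 105 CPM at vehicle, 237 and 271 at day 3 and 48.6 and 67.6 at day 7 (log2 change 1.52, SE 0.15, adjusted p = 0.0272, edgeR). Cd274 in the same cells overlapped between day 3 and vehicle. Cxcl10 was also higher in type 1 conventional dendritic-like cells at day 3 (log2 change 3.35, SE 0.39, adjusted p = 0.000811) and day 7 (log2 change 3.67, SE 0.38, adjusted p = 0.000404), where 1.14% and 0.0663% of all genes were called. Socs1, an inhibitor of cytokine signalling, was higher in B cell-like cells at day 3 (log2 change 1.79, SE 0.25, adjusted p = 0.0363), where 0.164% were. Ifngr1, a chain of the interferon gamma receptor, was lower in cycling T cell-like cells (log2 change -0.91, SE 0.19, adjusted p = 0.021), where 2.15% were. In other blood and lymphatic endothelial-like cells edgeR called 0 of 72 tests over the 3 contrasts, with 10 at an unadjusted p under 0.05. With HEV-like cells included, 0.0994% of all genes were called at day 3, 0% at day 7 and 0.00946% between labels.

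The genes whose levels followed each member most closely were found over 198 sums of class and library, among 11131 genes, by Pearson's r of log2(CPM + 1). The sums share libraries and cell types, so r is a description. The highest r of each ligand was below that of each receptor. Cd274 came closest to Samsn1, Tank and Pdcd1lg2 (0.59 each), Pdcd1lg2 to Pfn1 (0.76) and Bcl2a1b (0.73), Cd80 to Adap1 (0.80) and Efhd2 (0.76), Cd86 to Pmaip1 (0.80) and Il10ra (0.79), and Icosl to H2-Eb2 (0.80) and Gm15987 (0.78). Among the receptors, Cd28 came closest to Nsg2 (0.92) and Trbc1 (0.91), Icos to Zap70 (0.91) and Trbc2 (0.90), Pdcd1 to Ccr4 (0.88) and Crmp1 (0.84), Ctla4 to Izumo1r (0.87) and A630023P12Rik (0.83), and Tigit to Sh2d1a (0.83) and Il2rb (0.81).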

How the data were processed

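Droplet libraries made with the 10x 3-prime V2 chemistry were measured, 1 for each combination of treatment (vehicle, oxazolone day 3, oxazolone day 7), Cre label and fraction. The deposited tables hold UMI counts per gene and barcode, made by the authors with Cell Ranger 7.0.1 on mm10, per the submitters' processing notes; the annotation and use of strand are not given in the sources used here. The counts are unfiltered, with all barcodes listed.

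Cells with 1000 UMIs or more, 500 genes or more and no more than 10% of UMIs from mitochondria were retained, and the highest doublet scores were removed at 0.8% per 1000 cells, 4.78% to 9.31% per library. Each fraction was clustered with scanpy 1.11.5 (2000 variable genes, without the members, 30 components, 20 neighbours) and leidenalg 0.10.2 at resolution 1, and clusters were named from marker lists, so classes are rebuilt and not the authors'. UMIs were summed per class and library where each of the 6 libraries of a fraction had at least 20 cells. Genes with at least 30 UMIs over the 6 libraries were tested with edgeR 4.0.16 (TMM scaling, quasi-likelihood test, treatment and label as terms, 2 residual degrees of freedom), adjusted by Benjamini-Hochberg over all genes of the class, with calls at 0.05. DESeq2 1.42.0 was an alternative, beside other scalings and filters, no doublet removal, at least 2000 UMIs per cell, free RNA subtracted at 10% of UMIs, Leiden resolution 2 and each library left out, and, chosen after the data were seen, 2 libraries or 1 cluster left out. The scripts were checked on simulated counts with 200 genes changed at day 3. At a log2 change of 1, edgeR recovered 7% of them in migratory dendritic-like cells. It recovered 25.5% in regulatory T cell-like, 54.5% in HEV-like and 62.5% in other blood endothelial-like cells. At a log2 change of 2 these shares were 75.5%, 80%, 81.5% and 90%, in the same order. A gene that was not called may thus still have changed. Intervals are exact Poisson at 95% and cover counting error only, and the shares of cells at 1000 UMIs leave no shallower cell out, since none was kept.

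All 10 members were named in the fitted classes, with other genes of the pathway where called, at most 4 per compartment and contrast, and the 3 most correlated genes were ranked for each member. Members, lists and tests were chosen with earlier results of these data known. Nothing in the labels says how many mice each library came from.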

Additional observations from a re-analysis of the deposited data

Results flagged for a closer look

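Members with a mean level above free RNA were searched for changes against vehicle that went one way in the libraries labelled Cre-negative and the other way in those labelled Cre-positive, both beyond the 95% interval of counting error. The search covered the 3 endothelial classes, the migratory and type 1 conventional dendritic-like classes, 3 T cell classes and the B cell-like cells of the CD45 libraries, and found 12 cases. The share of all genes that would meet this rule was not counted, and the interval leaves out variation between libraries. The 12 cases are therefore not read as a trait of the members. Every Cre-negative ratio uses the vehicle library labelled Cre-negative, and those at day 7 also the day 7 library so labelled. Whether these libraries carry the right labels could not be settled, so the cases are not read as responses that depend on the label. Each value is a log2 ratio of CPM between 2 single libraries, the vehicle library is shared by day 3 and day 7, and the difference was not tested. For Cd274 the ratios, Cre-negative first, were 0.38 and -0.34 in HEV-like cells at day 3, 0.39 and -0.75 in lymphatic endothelial-like cells at day 3, 0.22 and -0.82 in other blood endothelial-like cells at day 7, and 0.51 and -1.16 in B cell-like cells at day 7. B cell-like cells had ratios at day 7 of 0.39 and -0.79 for Pdcd1lg2 and 0.39 and -0.30 for Icosl. For Cd86 in migratory dendritic-like cells at day 7 they were -0.50 and 1.42. For Ctla4 in regulatory T cell-like cells at day 3 they were -0.22 and 0.24. For Icos they were -0.59 and 0.62 in conventional CD4 cells, -0.54 and 0.48 in CD8 cells and -0.22 and 0.47 in regulatory T cell-like cells at day 3, and -0.68 and 0.16 in the last at day 7.

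In the Cd274, Pdcd1lg2 and Icosl ratios of B cell-like cells, the vehicle library labelled Cre-positive and the day 7 library labelled Cre-negative were the high ones. They held 19 and 8 germinal centre B cell-like cells, and the day 3 libraries, which were not high, 22 and 25.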

How the results depend on the processing

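Of the counts of calls under the alternatives, 155 stayed within 1.5 times the main count and 19 moved. All main counts but that of dendritic ligands at day 3 were 0, and a 0 that stayed 0 is among the 155. That number therefore does not measure how stable the calls are. Of 256 values for 16 tests of single members, 205 kept their side of the threshold, 25 came to pass it, 26 lost it and 0 changed sign. The day 3 test of Icos in conventional CD4 cells, which turned sign with the library left out, is not among the 16. Without the vehicle and day 7 libraries labelled Cre-negative and without the label term, a choice made after seeing the data, the endothelial ligand calls went from 0 to 2 at day 3 and to 1 at day 7. The dendritic ligand calls at day 3 went from 3 to 0 with no removal of doublets to 0 with free RNA subtracted and to 0 without the cluster led by Ighg1 (chosen after seeing the data), while of the 3 log2 changes that of Cd274 moved most, from 1.38 to 1.24. They were 1 to 4 with 1 library left out; at day 7 they were 0 to 1. The receptor calls in T cells with 1 library left out were 0 to 2 at day 3, 0 to 1 at day 7 and 0 to 2 between labels. Without a filter on low counts they were 1 at day 7 (Ctla4 in conventional CD4 cells) and 3 between labels, and with library totals in place of TMM 1 between labels (Cd28 in CD8 cells). The cause was not tested. In the comparisons between classes, the number of all genes called also moved with the library left out. That number is not given for each alternative, so nothing about the members is read from a pass gained there. Leaving a library out leaves 1 residual degree of freedom or gives a treatment 1 library, which is then assumed to vary like the others. The labels give no replicate numbers, so no replicate block was fitted. Labels are compared within treatments, since both are terms of the model. The migratory dendritic-like class had 96 to 175 cells per CD45 library, and its Pdcd1lg2 values rest on 7 to 131 UMIs per library.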
